A study of Mus musculus with 10 samples.

Results

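The genes described here are those of the Vgll, Tead and YAP network: 10 genes of the 27179 in the deposited table, found by their symbols, namely Vgll3, Vgll4, Yap1, Wwtr1, Tead1, Tead2, Tead3, Tead4, Ankrd1 and Amotl2. They were chosen because Vgll3 was lower in mutant than in wild-type mice, so their mutant and wild-type values are given as a description and no test of that difference is read. RNA came from pulverized femurs of 10 mice aged 3 or 4 weeks, the age of each mouse not being given. The mutants were heterozygous (Fgfr1+/N330I) for an allele of the fibroblast growth factor receptor gene Fgfr1, and the controls were wild-type (WT) littermates. By title, 3 mutants and 3 WT mice were female and 2 of each genotype were male, with 1 library a mouse. The series title presents the mice as a model of osteoglophonic dysplasia, a skeletal disorder. Whole femur RNA mixes the cell types of the bone, so that fewer cells of a type and less RNA per cell cannot be told apart in these values.

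TEAD proteins bind DNA but need partners to change transcription. YAP (gene Yap1) and TAZ (gene Wwtr1) are coactivators that enter the nucleus and bind TEADs unless the kinases of the Hippo pathway phosphorylate them, and the vestigial-like proteins, among them those of Vgll3 and Vgll4, bind TEADs too. VGLL4 competes with YAP for TEAD. In bone, TAZ is known as a partner of RUNX2, the transcription factor that osteoblasts need, and YAP and TAZ act in osteoblasts and osteocytes of mice. Ankrd1 and Amotl2 are widely used readouts of YAP and TAZ activity.

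The promoters of this network were searched for the core of the site that TEAD proteins bind, since several members are themselves targets or partners of TEADs. Windows of 300 bases, 250 before and 50 after each RefSeq start site (GRCm38.p6, the patch release of the mm10 assembly), were read on both strands for CATTCC, whose reverse complement is GGAATG. Of the 10 genes, 8 had a window in the table, and Tead1 and Tead4 had none. The letters were found in a window of 7 of these 8 genes (87.5%) and in none of Tead2. Of all 27025 genes with a window, 4481 (16.6%) held them, and 14.7% of the 32851 windows did. The windows of both vestigial-like cofactors and both targets, on which the description turns, read as follows, 5′ to 3′ on the strand of the gene, with the matches in capitals.

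Vgll3 (chr16:65814939-65815238, plus strand): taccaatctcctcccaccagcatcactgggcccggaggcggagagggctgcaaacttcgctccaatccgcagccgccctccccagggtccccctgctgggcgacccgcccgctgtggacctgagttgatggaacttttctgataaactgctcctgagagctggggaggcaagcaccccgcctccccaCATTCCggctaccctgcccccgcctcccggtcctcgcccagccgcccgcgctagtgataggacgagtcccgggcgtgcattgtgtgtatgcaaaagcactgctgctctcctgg
Vgll4 (chr6:114969154-114969453, minus strand): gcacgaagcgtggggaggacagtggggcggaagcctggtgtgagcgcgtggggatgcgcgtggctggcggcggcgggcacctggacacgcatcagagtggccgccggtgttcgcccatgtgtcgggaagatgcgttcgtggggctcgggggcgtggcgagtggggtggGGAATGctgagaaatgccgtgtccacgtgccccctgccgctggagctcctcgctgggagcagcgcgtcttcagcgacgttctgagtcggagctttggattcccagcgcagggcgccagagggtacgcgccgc
Ankrd1 (chr19:36119795-36120094, minus strand): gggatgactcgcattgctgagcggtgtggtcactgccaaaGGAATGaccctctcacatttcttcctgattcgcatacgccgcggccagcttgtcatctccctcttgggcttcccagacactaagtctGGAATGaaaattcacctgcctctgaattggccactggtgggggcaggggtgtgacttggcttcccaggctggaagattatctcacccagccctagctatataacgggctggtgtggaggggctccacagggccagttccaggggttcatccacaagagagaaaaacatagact
Amotl2 (chr9:102717554-102717853, plus strand): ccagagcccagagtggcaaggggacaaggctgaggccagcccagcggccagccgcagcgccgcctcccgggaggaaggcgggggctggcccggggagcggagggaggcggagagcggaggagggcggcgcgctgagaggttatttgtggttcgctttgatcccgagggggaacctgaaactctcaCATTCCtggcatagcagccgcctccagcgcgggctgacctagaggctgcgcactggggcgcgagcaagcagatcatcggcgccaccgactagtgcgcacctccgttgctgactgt

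In Vgll3 the match began 63 bases before the start site and in Amotl2 65 bases before it, both on the strand of the gene. Vgll4 had 1 match on the opposite strand, 82 bases before the start. The Ankrd1 window held 2 matches on the opposite strand, 123 and 210 bases before the start. Yap1 had 1 match (141 bases before the start), both Wwtr1 windows covered 1 match, and of the 3 Tead3 windows one held 3 matches and another held 1. The Vgll3 and Vgll4 windows lie before the first exon that the deposited table lists for these genes. A match is a run of letters and not a measured binding site.

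The libraries had a total of 24904802 to 39606608 normalized counts, against which 1 read was worth an estimated 0.845 to 2.194 normalized counts. Rn45s, the ribosomal RNA precursor, made up 28.8% of female WT 3 and 0.149% to 0.428% of each other library. In male WT 1, values fell off with exon length, at a slope of -1.78 log2 units per 10-fold longer exon sequence, where the slopes of all other libraries lay between -0.64 and 0.29. The library labelled male mutant 2 went against its label, with 7972 normalized counts of Xist and 4 of the Y-linked gene Ddx3y, and is named here by its label. Labelled sex also coincides with a change in the naming of the libraries, so that labelled sex and those library series cannot be told apart. Osteoblast markers were abundant, their 10 genes summing to 485865 to 1778330 normalized counts per library. Fgfr1, the mutated gene, stood at 11124.8 ± 1973.7 normalized counts in the mutants against 8082.4 ± 2706.7 in the controls (SD, n = 5 each). Gene-level values do not tell the mutant transcript from the normal one and so do not check the genotype labels. Fgf23, the bone hormone gene named in the series title, was at 0 to 11 normalized counts.

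All 10 genes of the network were detected in every library, the lowest value being 43 normalized counts, for Tead4 in male WT 2. Per kilobase of deposited exon sequence, Wwtr1 (686.2 ± 171.0 normalized counts per kb, SD, n = 10 libraries) and Amotl2 (683.2 ± 232.1) had the highest mean levels. Yap1 (528.3 ± 93.6) and Vgll4 (523.6 ± 83.1) followed. In this order of levels per kb, Wwtr1, Amotl2, Yap1 and Vgll4 each differed from the next by less than 1 SD, so these neighbours are not separated. The next step down was clear: Vgll4 was above Tead2 (325.0 ± 103.5) in 10 of 10 libraries. Tead1 (200.4 ± 67.0), Vgll3 (177.1 ± 46.0) and Tead3 (166.0 ± 35.4) lay close together per kb, each within 1 SD of the next. Ankrd1, a nuclear ankyrin repeat protein gene known from striated muscle, stood at 83.3 ± 39.3 normalized counts per kb. Tead4 was the lowest at 23.9 ± 8.20, below Ankrd1 in 10 of 10 libraries. An estimated 48.9 reads stood behind the lowest Tead4 value, and 44.2 behind the lowest value of Ankrd1.

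**Figure D1:**
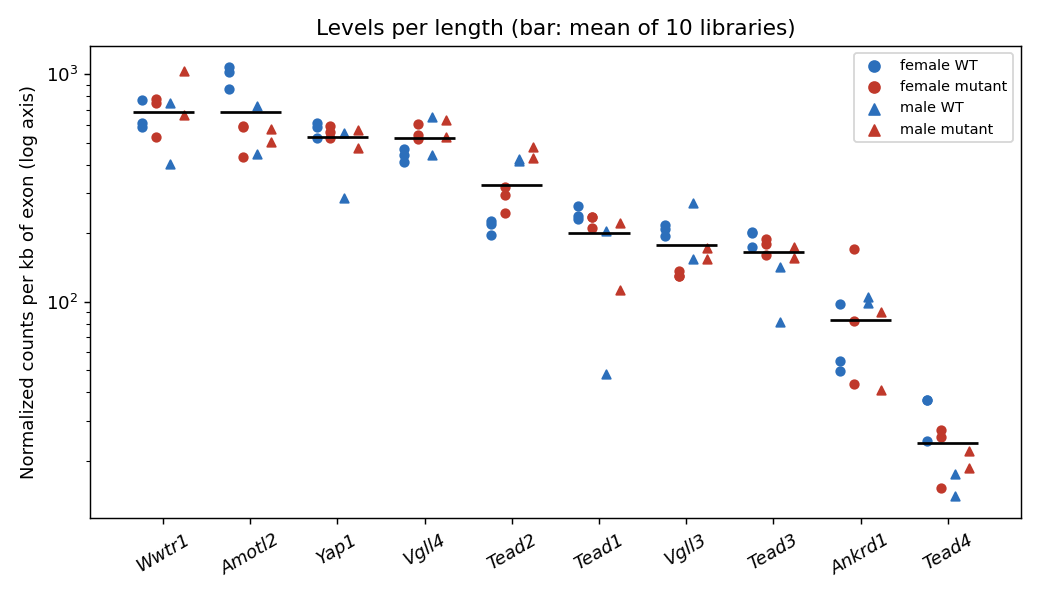
Normalized counts per kb of exon sequence (log axis) for the 10 genes, ordered by their mean over 10 libraries. Points are libraries, circles female and triangles male by label, red mutant and blue WT, and bars are means. The means run from 686.2 for Wwtr1 to 23.9 for Tead4.

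Vgll3 (Entrez 73569, chromosome 16, 65815633 to 65863066, mm10, 4 exons), the cofactor on which the choice of genes rests, lay lower in the mutants. It had 433, 455 and 434 normalized counts in female mutants 1, 2 and 3, and 649, 693 and 726 in female WT mice 1, 2 and 3. Among the females every mutant was below every WT library, as in 7.16% of all genes tested, and the 3 mutants lay close together. In the male-labelled libraries, mutants 1 and 2 had 514 and 576 and WT mice 1 and 2 had 512 and 906. Here the groups overlapped, male WT 1 lying just below both mutants. The mutants averaged 482.4 ± 61.8 and the controls 697.2 ± 142.4 (SD, n = 5 each), a ratio of 0.692. On the log2(normalized count + 1) scale, used for all differences here, the mutant minus WT estimate was -0.52 ± 0.15 (SE) in all mice, -0.64 ± 0.19 in females and -0.32 ± 0.24 in labelled males. Without male WT 2 the estimate in labelled males was 0.09, and without male WT 1 it was -0.73.

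Vgll4 (chromosome 6, 114862090 to 114921752, 5 exons), the cofactor that competes with YAP, lay in the other direction in the females. Female mutants had 674, 784 and 697 normalized counts and female WT mice 607, 570 and 533. No mutant value fell among the WT values, where 6.77% of all genes tested lay higher in female mutants without overlap. Male mutants had 684 and 811, and male WT mice 572 and 838, so that the labelled males overlapped. The mutant minus WT estimate was 0.24 ± 0.12 in all mice, 0.33 ± 0.16 in females and 0.11 ± 0.20 in labelled males. In labelled males it was 0.38 without male WT 2 and -0.17 without male WT 1.

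Set against each other within each library, the pair of cofactors separated the genotypes. The ratio of Vgll3 to Vgll4, each per kb, was 0.249, 0.225 and 0.242 in female mutants, 0.415, 0.472 and 0.529 in female WT mice, 0.292 and 0.276 in male mutants, and 0.347 and 0.420 in male WT mice. All 5 mutants (0.225 to 0.292) lay below all 5 WT mice (0.347 to 0.529). A ratio within a library does not depend on how libraries were scaled. Vgll3 has 3.331 kb of exon sequence and Vgll4 1.293 kb, and the part of the exon length trend in the ratio was not tested. The share of other gene pairs that separate the genotypes is not given here. The ratio was formed after the values were seen, with Vgll3 chosen on the same contrast, and is a description.

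**Figure D2:**
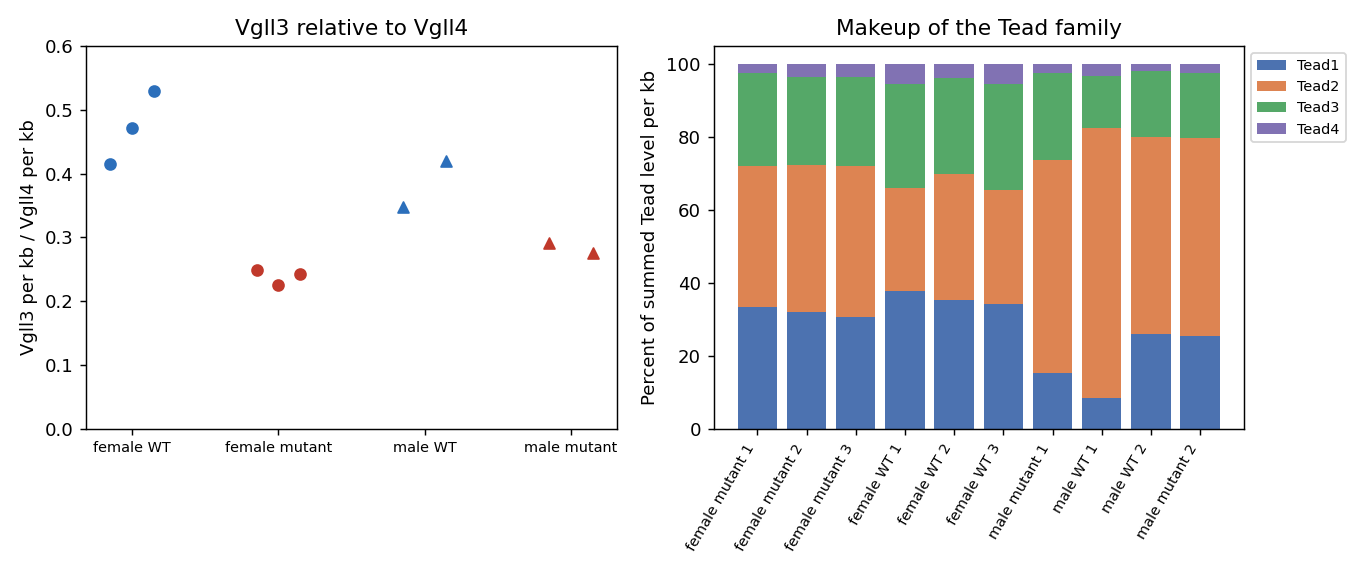
Left, the level of Vgll3 per kb divided by that of Vgll4 per kb in each library (circles female, triangles male by label, red mutant, blue WT), where mutants lie at 0.225 to 0.292 and WT mice at 0.347 to 0.529. Right, the percent of the summed Tead level per kb that each of the 4 Tead genes took in each library, with Tead2 at 28.1% to 41.5% in females and 54.0% to 74.0% in labelled males.

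The coactivator genes differed little between the genotypes in females. Yap1 (chromosome 9, 7931999 to 8004596, 9 exons) had 2194, 2338 and 2469 normalized counts in female mutants and 2549, 2185 and 2443 in female WT mice, which overlap. Labelled males had 1986 and 2379 in mutants and 1194 and 2298 in WT mice, male WT 1 being far the lowest of the 10 libraries. GENCODE M21 places 116 bases of the antisense transcript Gm20416 on Yap1 exons, and whether counting used strand is not given in the sources used here. Wwtr1 (chromosome 3, 57455644 to 57575910, 7 exons) had 2538, 3724 and 3569 normalized counts in female mutants and 3671, 2803 and 2915 in female WT mice. Labelled males had 3167 and 4935 in mutants and 1925 and 3582 in WT mice. Both genotypes spanned similar ranges in females, and male mutant 2 had the highest Wwtr1 value. Mutant minus WT estimates in all mice were 0.14 ± 0.17 for Yap1 and 0.27 ± 0.22 for Wwtr1. Without male WT 1 they were -0.05 for Yap1 and 0.08 for Wwtr1.

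Of the DNA-binding genes, Tead2 (chromosome 7, 45215753 to 45233619, 12 exons), a TEAD gene known from early mouse embryos, lay higher in the mutants of each labelled sex. Female mutants had 522, 625 and 677 normalized counts and female WT mice 415, 479 and 463. Male mutants had 906 and 1009 and male WT mice 881 and 896. Within each labelled sex the mutants were above the WT mice without overlap. Of all genes tested, 6.77% lay higher in this way in females and 13.1% in labelled males. The steps differed in size: the estimate was 0.42 ± 0.13 in females, 0.11 ± 0.16 in labelled males and 0.29 ± 0.11 in all mice. Pooled over sex the genotypes overlapped, since labelled males of either genotype were above all females.

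Tead1 (chromosome 7, 112679320 to 112906805, 14 exons), a TEAD gene needed for the mouse heart to form, has the longest exon sequence of the 10 genes, 9.962 kb. It had 2107, 2345 and 2343 normalized counts in female mutants and 2627, 2314 and 2378 in female WT mice. Male mutants had 1127 and 2208, and male WT mice 478 and 2039. The 2 lowest libraries, male WT 1 and male mutant 1, were those with the most negative trend on exon length. Tead3 (chromosome 17, 28331671 to 28350805), known from mouse placenta, had 485 to 566 normalized counts in female mutants and 525 to 610 in female WT mice. In labelled males Tead3 had 524 and 467 in mutants and 244 and 426 in WT mice. Tead4 (chromosome 6, 128227143 to 128300813), which the mouse embryo needs to make trophectoderm, had 47, 78 and 84 in female mutants and 114, 75 and 114 in female WT mice. Tead4 had 57 and 68 in male mutants and 54 and 43 in male WT mice. Mutant minus WT estimates in all mice were 0.21 ± 0.36 for Tead1, 0.17 ± 0.19 for Tead3 and -0.18 ± 0.26 for Tead4, and signs turned for each on leaving out 1 library: Tead1 was -0.19 and Tead3 -0.024 without male WT 1, and Tead4 was 0.0069 without female mutant 1.

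Summed over the family, the Tead level spanned 635.0 to 876.2 normalized counts per kb among mutants and 563.3 to 784.1 among controls, ranges that overlap. Tead2 took 28.1% to 41.5% of that sum in females and 54.0% to 74.0% in labelled males. Tead1 took 30.5% to 37.8% in females and 8.52% to 26.1% in labelled males. The 8.52% and 74.0% are those of male WT 1, and without it labelled males had 15.4% to 26.1% for Tead1 and 54.0% to 58.3% for Tead2. With or without that library, the shares of Tead1 and Tead2 did not overlap between labelled sexes. Shares of 1 sum depend on each other, and how often other such shares separate the labelled sexes is not given here. Tead1 has 9.962 kb of exon sequence, and its labelled sex estimate went from -0.91 to -0.33 with the exon length trend removed. The part of that trend in the shares was not tested.

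Amotl2 (chromosome 9, 102717804 to 102733417, 10 exons), a YAP target whose protein binds YAP and holds it back, lay lower in female mutants. It had 1822, 2495 and 2458 normalized counts in female mutants and 4496, 3617 and 4312 in female WT mice. The groups were far apart, with a mean of 2258.3 ± 378.3 against 4141.7 ± 463.6 (SD, n = 3 each), or 0.545 of the WT mean. In females, 7.16% of all genes tested lay lower in mutants without overlap. Male mutants had 2408 and 2113, and male WT mice 1867 and 3045, so that the WT pair enclosed the mutant pair. The estimate was -0.88 ± 0.20 in females, -0.08 ± 0.25 in labelled males and -0.56 ± 0.20 in all mice. In labelled males it was 0.27 without male WT 2 and -0.43 without male WT 1.

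Ankrd1 (chromosome 19, 36111965 to 36119844, 9 exons), the other target, did not follow Amotl2. It had 77, 145 and 301 normalized counts in female mutants and 88, 172 and 97 in female WT mice. Male mutants had 72 and 160 and male WT mice 185 and 174. The female mutants alone spanned 77 to 301, and the estimate was -0.06 ± 0.41 in all mice. Leaving out 1 library moved it between -0.39 (without female mutant 3) and 0.22 (without male mutant 1). Female mutant 3, with the highest Ankrd1 value, also had the largest sum of 10 skeletal muscle markers, 7334 normalized counts against 524 to 4581 in the others, none of the 10 markers being at 0 in any library. These sums were 1078 to 7334 in female mutants and 524 to 1128 in female WT mice, and 670 to 7334 and 524 to 2459 over all mice. The part of muscle RNA in the Ankrd1 values was not tested.

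**Figure D3:**
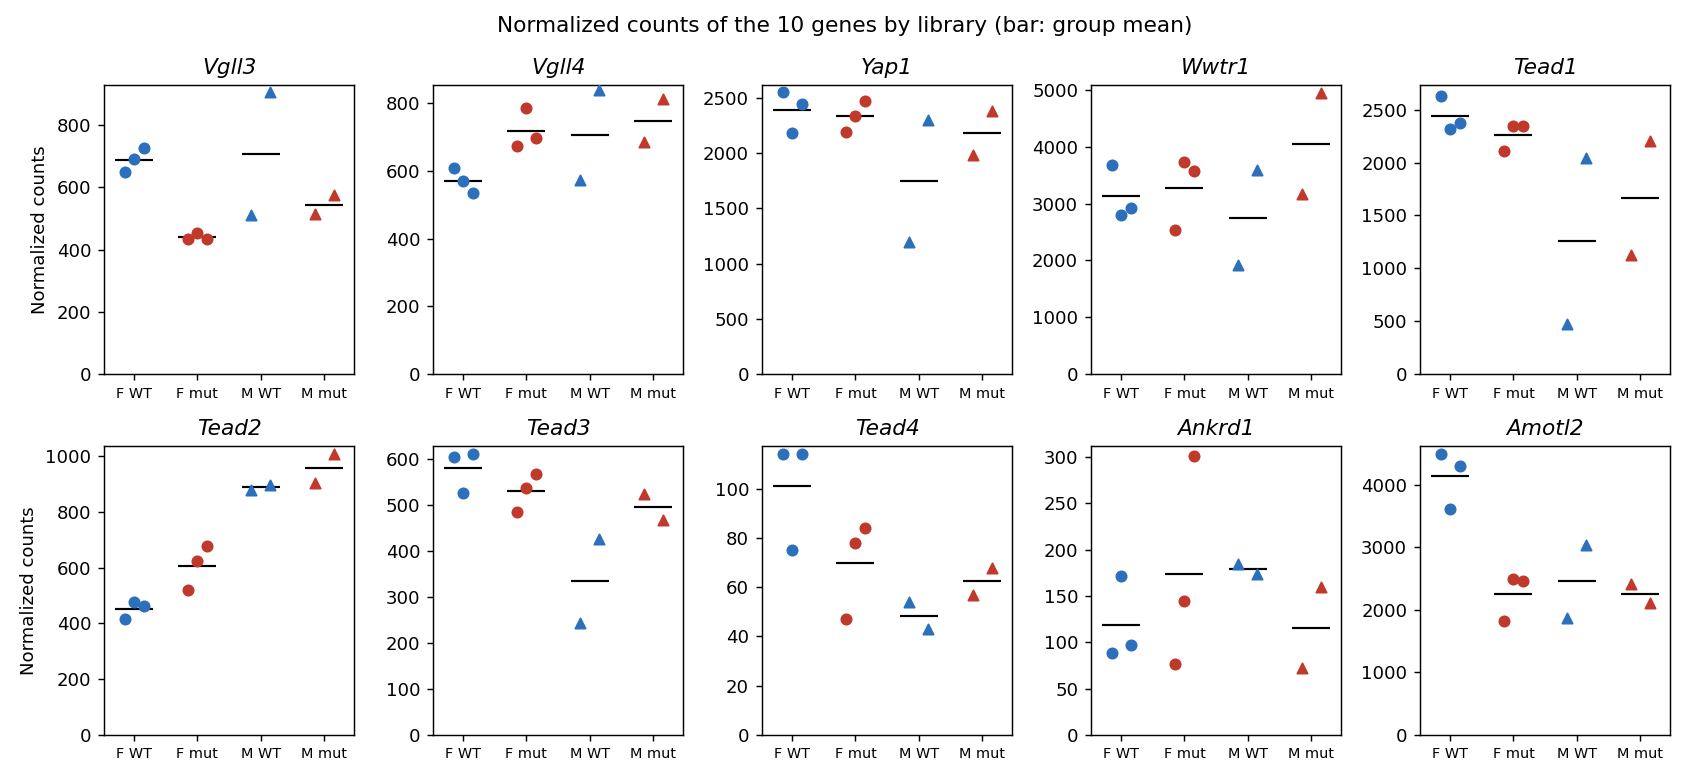
Normalized counts of each gene in the 10 libraries, by group (F female, M male by label, mut mutant), with axes from 0. Points are libraries, red mutant and blue WT, and bars are group means. Vgll3 and Amotl2 of female mutants lie at 433 to 455 and 1822 to 2495, below the female WT libraries.

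Across all 14362 genes tested with limma, none differed between the genotypes at an adjusted p under 0.05 (0% called), and so 0 of the 10 genes did. Without adjustment, 907 genes (6.32%) had a p under 0.05, among them 3 of the 10, namely Vgll3, Tead2 and Amotl2. Mutants and WT mice did not overlap in 119 genes (0.829%) and in 0 of the 10. In females alone, 0.0139% of genes passed at an adjusted p under 0.05 and 4.44% without adjustment, and the genotypes did not overlap in 13.9% (6.77% higher and 7.16% lower). Of the 10, 4 did not overlap there (Vgll3 and Amotl2 lower, Vgll4 and Tead2 higher). In labelled males 0% passed and 8.31% had an unadjusted p under 0.05, and the genotypes did not overlap in 26.8% (13.1% higher and 13.7% lower), and in 4 of the 10 (Tead2, Tead3 and Tead4 higher, Ankrd1 lower). Since the genes were chosen on this contrast, nothing is read from these counts. The median mutant minus WT estimate of the 10 genes was 0.15, beside -0.01 over all genes tested.

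**Figure D4:**
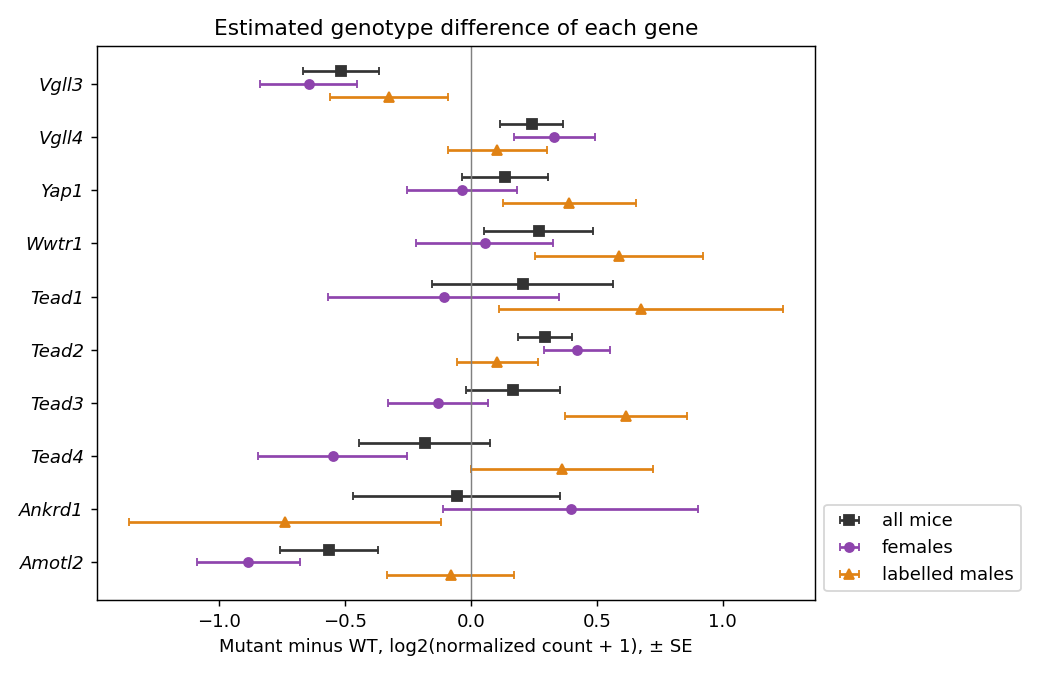
Estimated mutant minus WT difference of each gene on the log2(normalized count + 1) scale, with its SE, in all mice (squares, n = 5 against 5), females (circles, 3 against 3) and labelled males (triangles, 2 against 2). Vgll3 lies at -0.52, -0.64 and -0.32, and Amotl2 at -0.56, -0.88 and -0.08.

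Sums of markers of other cells are given beside these genes, and no marker of the lists that follow passed the test for genotype in females. The 10 endothelial markers summed to 1561 to 16575 normalized counts in female mutants and 16603 to 28463 in female WT mice, with female mutant 1 at 1561. The 10 periosteum and tendon markers summed to 48383 to 88871 in female mutants and 87907 to 107575 in female WT mice, and the 10 osteoclast markers to 62835 to 96540 and 34301 to 57611. All 10 genes of each of these lists were tested and none was at 0 in any library. Of the mutant minus WT estimates in females, 7 of the 10 osteoclast markers were above 0. For endothelial markers it was 0 of 10, and for periosteum and tendon markers 3 of 10. The nearest endothelial sums of the genotypes in females were 16575 and 16603. The periosteum and tendon sums overlapped in females, and the endothelial and osteoclast sums did not. Of single genes 13.9% did not overlap, and the share for sums of 10 genes is not given here. Over all mice all 3 overlapped: 1561 to 24178 in mutants and 13815 to 28463 in controls for endothelial, 62835 to 337065 and 34301 to 101352 for osteoclast, and 43846 to 88871 and 24616 to 107575 for periosteum and tendon markers. Without female mutant 1 the Amotl2 estimate in all mice was -0.44 and that of Vgll3 was -0.49. The 10 osteoblast markers summed to 839192 to 1036298 in female mutants and 901049 to 1778330 in female WT mice, which overlap. Of their estimates, 1 of 10 was above 0 in females and 9 of 10 in labelled males. In labelled males it was 5 of 10 for endothelial, 9 of 10 for osteoclast and 7 of 10 for periosteum and tendon markers. Over all 14362 genes tested, 7120 were above 0 in females and 7171 in labelled males. The part of cell makeup in the values of Vgll3 and Amotl2 was not tested further.

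Whether the genotype difference itself differed between labelled sexes was not the basis on which the genes were chosen, and was tested as an interaction with limma. Of 14362 genes 0 passed at an adjusted p under 0.05 (0% called), and 0 of the 10 did. Without adjustment, 563 genes (3.92%) and 2 of the 10 had a p under 0.05. These were Amotl2, whose estimate was higher in labelled males than in females by 0.80 ± 0.32 (limma adjusted p = 0.801), and Tead3, higher by 0.75 ± 0.31 (limma adjusted p = 0.801). Tead4 had 0.91 ± 0.47 and Ankrd1 -1.13 ± 0.80. This test rests on 2 mice per genotype among the labelled males. Without male WT 2, which leaves male WT 1 as the only male control and assumes that it varies like the other groups, 2674 genes and 5 of the 10 passed (Vgll3, Yap1, Tead1, Tead3 and Amotl2). Without male WT 1 none did, and the difference was 0.45 for Amotl2 and 0.34 for Tead3.

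Labelled sex is another contrast than the one on which the genes were chosen, though earlier results of these data were known. Tead2 was higher in the male-labelled libraries: 881, 896, 906 and 1009 normalized counts, against 415 to 677 (median 500.5) in the 6 female libraries. The groups did not overlap, as in 10.9% of all genes with higher values in labelled males, and the mean was 1.74 times as high. The estimate of 0.82 ± 0.11 passed with a limma adjusted p of 0.00369. This was 1 of the 10 genes, where 2886 of all 14362 genes (20.1%) passed, 9.46% as higher in labelled males. The library labelled male mutant 2, with female-like Xist, had the highest Tead2 value, 1009. Without that library the Tead2 estimate was 0.82, and over the omission of each library in turn it ran from 0.78 to 0.88 and passed each time.

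Other members did not pass for labelled sex. Estimates, labelled males minus females, were -0.91 ± 0.37 for Tead1 (limma adjusted p = 0.0974), -0.47 ± 0.19 for Tead3 (limma adjusted p = 0.101), -0.57 ± 0.26 for Tead4 (limma adjusted p = 0.140) and -0.31 ± 0.18 for Yap1 (limma adjusted p = 0.212). Tead1 passed once male WT 2 was left out (-1.22), and likewise on omitting the library labelled male mutant 2 (-1.19). Without male WT 2, 4034 of all genes passed, against 2886 in the main fit. With male WT 1 left out, the estimates were nearer to 0 and did not pass, at -0.42 for Tead1, -0.23 for Tead3 and -0.083 for Yap1. Vgll3, at 0.14 ± 0.15 (limma adjusted p = 0.512), passed as higher in labelled males without male WT 1 (0.34). Over the omission of each library in turn, 964 to 4034 of all genes passed. The counts without male WT 1 and without male mutant 2 are not given here, so nothing is read from the Tead1 and Vgll3 calls.

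Exon length moved with several, but not all, of these values. In male WT 1, Tead1 with 9.962 kb of exon stood at 0.205 of the median of the 8 libraries other than male WT 1 and male mutant 1. Yap1 (4.171 kb) stood at 0.506 and Wwtr1 (4.784 kb) at 0.538, while Ankrd1 (1.765 kb) stood at 1.21 and Vgll4, with the shortest exon sequence (1.293 kb), at 0.834. Tead2 (2.115 kb) stood at 1.54, but 6 of the 8 libraries are female and Tead2 was higher in every male-labelled library. Across the 10 genes the log2 ratio and log10 exon length had a Pearson r of -0.82 in male WT 1 and -0.37 in male mutant 1, given as a description over 10 genes of 1 library. In male mutant 1 Tead1 stood at 0.484, Tead2 at 1.58, and the short Ankrd1 was lowest of the 10 at 0.472. With the trend on exon length removed from each library, an alternative added after the values were seen, Tead2 differed between labelled sexes by 0.72 and still passed. The Tead1 estimate went from -0.91 to -0.33, and that of Yap1 from -0.31 to -0.13. The genotype estimate in all mice was -0.54 for Vgll3 and -0.62 for Amotl2 with this trend removed.

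**Figure D5:**
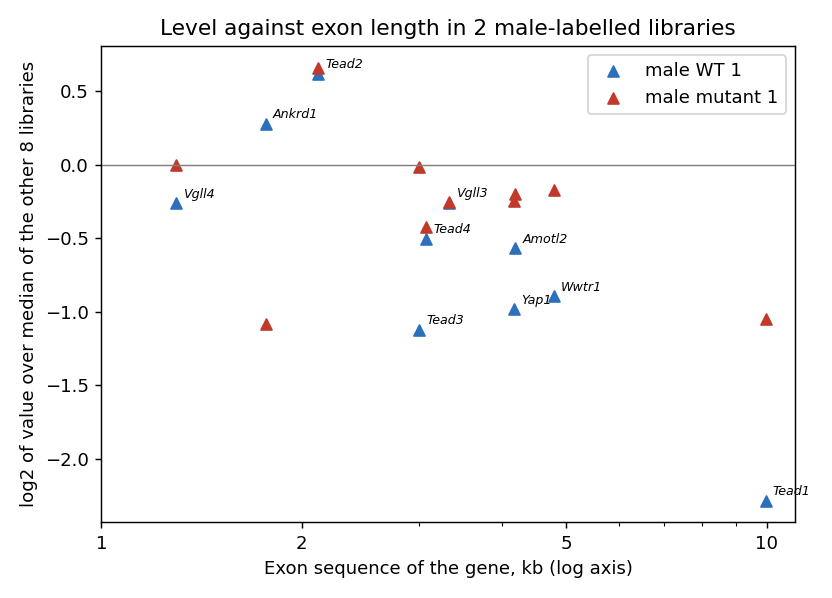
Level of each of the 10 genes in male WT 1 (blue) and male mutant 1 (red), as log2 of its value over the median of the other 8 libraries, against exon sequence in kb (log axis). Tead1, at 9.962 kb, is lowest in male WT 1 at -2.28, and Tead2 lies at 0.62.

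Pairs of these genes varied together over the 10 libraries to different degrees. Yap1 and Tead1 had a Pearson r of 0.97 over log2 values, which was 0.84 without male WT 1. Yap1 with Tead3 had 0.91, and 0.41 without male WT 1. Vgll3 and Amotl2 had 0.68, and 0.68 also with the 4 group means taken out. Vgll3 and Vgll4 had -0.08, and 0.83 with the group means taken out. Tead2 with Amotl2 was the most negative pair at -0.64. These values describe 10 libraries that share scaling, and the first ones lean on male WT 1. Those with group means taken out lean on male WT 1 and male WT 2, at 512 and 906 normalized counts of Vgll3. In the other groups Vgll3 spanned 433 to 455, 514 to 576 and 649 to 726.

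Among the genes outside the network whose log2 values were most like those of Vgll3 over the 10 libraries were Rell1 (Pearson r = 0.89), Dkk3 (0.89), Ric3 (0.88) and Mras (0.86). Dkk3 encodes a secreted protein of the Dickkopf family and Mras a small GTPase. Without female WT 3 and male WT 1, r was 0.88 to 0.90 for these 4 genes, and with group means taken out it was 0.82 to 0.93. The 4 genes were picked for their r over the same 10 libraries, so these values are no separate check of it. With group means taken out, r leans on male WT 1 and male WT 2. Ric3, which aids acetylcholine receptor assembly, lay at 42 to 57 normalized counts in the mutants against 60 to 88 in the controls. Rell1, Dkk3 and Mras overlapped, at 1196 to 1733, 3939 to 6009 and 786 to 907 in mutants. Controls had 1368 to 1996, 4262 to 8456 and 809 to 1123. Of all genes tested, 0.829% did not overlap. These genes were picked for likeness to Vgll3, itself chosen on this contrast, so nothing is read from these ranges.

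The rest of the pathway gave no called difference between genotypes. Of 26 listed Hippo kinases, regulators and other TEAD cofactors, 24 were tested and 0 passed in either direction, with a median mutant minus WT estimate of 0.09 beside -0.01 over all genes. The smallest p values belonged to Wtip, a LIM protein that restrains LATS kinases (0.18 ± 0.08, limma adjusted p = 0.773), the kinase adaptor Mob1a (0.19 ± 0.10, limma adjusted p = 0.791), the YAP-binding Amot (0.46 ± 0.36, limma adjusted p = 0.804) and Mob1b (0.19 ± 0.19, limma adjusted p = 0.821). The other vestigial-like genes were nearly absent: Vgll1 was listed at 0 in every library and Vgll2 at 0 to 4 normalized counts.

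Of 20 listed YAP and TAZ targets, which leave out Ankrd1 and Amotl2 and share Lats2 and Ptpn14 with the first list, 20 were tested and 0 passed, with a median of -0.08. Without adjustment, 1 gene of each list had a p under 0.05, Wtip and Nt5e, both with higher values in mutants. Nt5e, an enzyme that makes adenosine, had 0.55 ± 0.22 (limma adjusted p = 0.739), the stress gene Gadd45b -0.35 ± 0.16 (limma adjusted p = 0.786), Dock5 0.53 ± 0.31 (limma adjusted p = 0.795) and the kinase gene Nuak2 -0.35 ± 0.22 (limma adjusted p = 0.795). Ctgf and Cyr61, named after their values were seen as the best known YAP targets, had -0.53 ± 0.35 and -0.18 ± 0.27. In females, 3 of the 20 target estimates were above 0, with a median of -0.22 beside -0.0015 over all genes tested. In labelled males 17 of 20 were above 0, with a median of 0.18, where 7171 of all 14362 genes tested were above 0. The Hippo list moved likewise, with 7 of its 24 tested genes above 0 in females and 22 in labelled males. Labelled males had 2 controls, and 1 was male WT 1, whose values fell off with exon length. The part of that trend in these counts was not tested. In females 0 of the 20 targets passed and 2 had an unadjusted p under 0.05, both with lower values in mutants, where 4.44% of all genes did. In labelled males 0 of the 20 passed and 1 had an unadjusted p under 0.05, against 8.31% of all genes.

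By labelled sex, 4 of the 24 Hippo genes passed against 20.1% of all genes, 1 of them higher in labelled males (Stk3, a core Hippo kinase, 0.37 ± 0.09) and 3 lower (Taok1, Taok2 and Limd1). Of the 20 targets, 1 passed: Cyr61 was 1.30 ± 0.27 higher in labelled males (limma adjusted p = 0.0157), at 8907 to 14369 normalized counts against 3272 to 7382 in females. These genes were named after their values were seen.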

How the data were processed

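Femur RNA was sequenced by Illumina after ribosomal RNA removal, as the labels' protocols describe. STAR 2.5.2b, DESeq2 1.14.1 and mm10 are named, per the submitters' processing notes; counter, annotation and strand setting are not given there. The authors deposited 1 score per gene and library, a DESeq2-normalized count, per the file headers, with no decimals. Whole reads could not be recovered, so no count test was run. What 1 read was worth was estimated from the whole numbers up to 150 that each library skips. Depths of this kind cover counting error only.

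Of 27179 genes, the 14362 with 10 or more normalized counts in at least 5 libraries were tested, the 10 members included. Values were put on the log2(normalized count + 1) scale, which understates differences of low genes. limma 3.58.1 (R 4.3.3) was fitted with trended, robust moderation and labelled sex as a covariate, and p-values were adjusted by Benjamini-Hochberg over the 14362 genes, an adjusted p under 0.05 being called. Estimates within a sex and the interaction came from a fit of the 4 group means. The fits were tested on simulated data. At most 1.12% of genes had equal values in 2 replicates, and each library stands for 1 mouse.

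Members and lists were chosen with earlier results of these data known. Genes named are the 10 members, Fgfr1, Fgf23, Xist and Ddx3y, up to 4 genes per pathway list with the smallest genotype p, and the 5 non-members most correlated with Vgll3, of which 1 is not reported here; any other is said to be named after its values were seen. Alternatives were other pseudocounts (0.5 and 5), no filter or a mean of 50 or more, quantile normalization, array weights, dropping the sex term, a block on replicate number, leaving out each library, leaving out female WT 3 with male WT 1, and removing the exon length trend. Among cell type markers, 9 of the 10 growth plate cartilage genes were tested, with sums of 10843 to 24614 normalized counts per library. Promoters are from RefSeq (GRCm38.p6).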

Additional observations from a re-analysis of the deposited data

Results flagged for a closer look

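Single libraries stood apart from the other 4 of their genotype in 4 of the 20 groups examined (10 genes, 2 genotypes), judged by the gap to the nearest library over the range of the group (above 0.71). Chance flags about 1 in 20 such groups. Tead1 was lowest in male WT 1, at 478 normalized counts against 2039 to 2627 in the other WT mice, and lowest among mutants in male mutant 1, at 1127 against 2107 to 2345. Yap1 was lowest in male WT 1, at 1194 against 2185 to 2549. Vgll4 was highest in male WT 2, at 838 against 533 to 607 in the other WT mice. Male WT 1 and male mutant 1 had the steepest negative trends on exon length, -1.78 and -0.64 log2 units per 10-fold longer exon sequence, and the part of that trend in these values was not tested beyond the alternative with the trend removed.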

How the results depend on the processing

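The mutant minus WT estimate of Vgll3 kept its sign in 20 of 20 alternatives (-0.67 to -0.42), as did those of Amotl2 (-0.74 to -0.44), Tead2 (0.23 to 0.36), Vgll4 (0.12 to 0.35) and Wwtr1 (0.06 to 0.39). The signs of Yap1, Tead1, Tead3, Tead4 and Ankrd1 were kept in 17, 16, 18, 19 and 14 of 20. With array weights, 1 of the 10 genes (Vgll3, -0.64) and 11 of all genes passed for genotype in all mice, where 0 did otherwise. Since Vgll3 was chosen on this contrast, nothing is read from that call or from its kept sign. With the replicate number as a block, 0 of the 10 genes and 0 of all genes passed, and the Vgll3 estimate was -0.52. Deviations of same-numbered mutant and WT libraries had r of -0.32, -0.29 and 0.0012 in females. In labelled males r was 0.22, which is 1 value, since with 2 libraries per group both pairs give the same r. Not every pair deviated together, and nothing in the labels ties the numbers to a litter or batch. For genotype in females, 2 of all genes passed; it was 1 with a pseudocount of 5, with a mean of 50 or more, with quantile normalization and with the exon length trend removed, 7 with array weights, 0 without female WT 3 and male WT 1, and 0 to 1 without each library in turn. Without each library in turn, 0 to 4 of the 10 genes and 0 to 4363 of all genes passed in labelled males, and 0 to 5 and 0 to 2674 for the interaction, the highest in each case without male WT 2. For labelled sex, 1 of the 10 genes and 2886 of all genes passed in the main fit. Without each library in turn it was 1 to 2 and 964 to 4034. With array weights 3 of the 10 genes passed, and 2 without female WT 3 and male WT 1. Counts over all genes are not given here for those 2 settings, so nothing is read from them. Of the 24 Hippo genes tested, 4 passed for labelled sex, 2 with no filter on low values, and 1 to 6 without each library.

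Signs that turned were all in results that did not pass. For labelled sex, Vgll4 was -0.12 with the exon length trend removed, Wwtr1 -0.018 with quantile normalization, and Ankrd1 -0.13 without female WT 3 and male WT 1 and -0.081 with the exon length trend removed. Without each library in turn, the labelled sex estimates ran from -0.16 to 0.26 for Wwtr1 and from -0.077 to 0.44 for Ankrd1. For the interaction they ran from -0.091 to 0.73 for Vgll3, -0.50 to 0.048 for Vgll4, -0.046 to 0.90 for Yap1 and -0.26 to 1.83 for Tead1. Without female WT 3 and male WT 1 the interaction was -0.13 for Vgll3, -0.062 for Yap1 and -0.25 for Tead1. The cause of these changes was not tested. Tead4 and Ankrd1 rest on the fewest reads of the 10 genes, an estimated 44.2 to 302.5 per library, while the SE of the genotype estimate was largest for Ankrd1 (0.41) and Tead1 (0.36).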

Other observations

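Within libraries, the level of Wwtr1 per kb over that of Yap1 per kb was 1.01 to 1.39 in females (median 1.19) and 1.36 to 1.81 in labelled males (median 1.40), with mutants at 1.01 to 1.81 and WT mice at 1.04 to 1.41. Wwtr1 was the higher of both per kb in all 10 libraries. The ratio was formed after the values were seen and was not tested.

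Coding sequence made up 13.1% of the deposited exon bases of Tead1 and 66.6% of those of Vgll4, by GENCODE M21. Where on the exons the reads fell was not examined.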
